A study of Mus musculus with 24 samples.

Results

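MHC class I molecules carry peptides from inside the cell to its surface, and interferons raise both this presentation machinery and a set of antiviral genes. Here 9 genes of these systems are described in mouse plantaris, a fast hindlimb muscle. They were chosen by symbol, and all 9 were found among the 47643 gene IDs of the deposited count table. Muscle was taken from wild-type C57BL/6 mice, and 11 samples belong to the normal air group and 13 to the group given tobacco smoke over 16 weeks. All mice carried the same genotype, and the labels used here give no age or sex. Whole muscles were profiled by 3′-end RNA sequencing, in which a transcript gives reads near its poly(A) tail. The series title concerns activity of the aryl hydrocarbon receptor, a sensor of smoke components, in muscle impairment, and the comparison asks which transcripts differ after exposure.

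A class I molecule is a heavy chain (H2-K1 or H2-D1 in this strain) bound to the light chain beta-2 microglobulin (B2m). Proteasomes cut the peptides, the Tap1/Tap2 transporter moves them into the endoplasmic reticulum, and tapasin (Tapbp) holds the empty heavy chain beside the transporter. Interferon-gamma raises the transcription factor Irf1, and signalling by the type I interferons involves the factor Irf9. Among their targets are Ifitm3, which hinders entry of viruses at membranes, Ifit1, which binds foreign RNA, and Bst2 (tetherin), which holds budding virus at the cell surface. Resting skeletal muscle fibres are known for low class I levels, which rise in inflammatory muscle disease.

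The promoters of the 9 genes, 250 bases before the first RefSeq start listed for each (GRCm38.p6), were searched on both strands for 3 interferon- or inflammation-linked motifs. These were the core of the interferon-stimulated response element (2 copies of GAAA with any 2 bases between them), the gamma-activated site (TTCNNNGAA) and a kappa-B-like site (GGGANNNCC). The response element core was found in B2m, Ifit1 and Bst2, 3 of 9 genes, against 2.98% of 32851 promoters. The kappa-B-like letters were found in H2-K1, H2-D1 and Irf1 (15.8% of all promoters), and the gamma-activated site letters in Irf1 and Bst2 (7.02%). Tap1, Tapbp and Ifitm3 held none of the 3 in this window. The stretches around the matches are printed for the 3 class I chains, whose levels are compared below, and for Ifit1, 1 of the 2 genes nearest to the detection floor. The matches stand in capitals, and each line reads 5′ to 3′ along the strand of the gene.
B2m (response element core, chr2:122147513-122147592, plus strand): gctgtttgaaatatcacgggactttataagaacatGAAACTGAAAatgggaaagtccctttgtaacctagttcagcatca
H2-K1 (kappa-B-like, chr17:34000414-34000508, minus strand): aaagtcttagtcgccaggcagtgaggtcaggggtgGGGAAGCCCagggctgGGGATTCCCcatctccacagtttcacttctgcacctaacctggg
H2-D1 (kappa-B-like, chr17:35262873-35262967, plus strand): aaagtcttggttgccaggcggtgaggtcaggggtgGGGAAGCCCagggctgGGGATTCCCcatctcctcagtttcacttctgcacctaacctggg
Ifit1 (response element core, chr19:34640750-34640848, plus strand): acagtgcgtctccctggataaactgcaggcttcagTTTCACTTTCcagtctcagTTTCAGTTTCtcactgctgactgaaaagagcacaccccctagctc

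The GENCODE record of H2-D1 given below begins upstream of the RefSeq start, so that the H2-D1 stretch lies inside that record. The H2-K1 and H2-D1 stretches hold the same 2 kappa-B-like matches at the same spacing. Aligned over 190 bases, the 2 promoters were identical at 167 (87.9%). A match describes letters in a window and is no measured site. The letters searched are strict, so a gene without a match is not shown to lack such an element.

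Total counts per sample ran from 2515697 to 4528845, and all samples were read on 1 lane. A floor of 3 counts, below which a gene is hard to tell from absent, equalled 0.665 to 1.15 CPM (counts scaled to a common library size, corrected by TMM factors). Markers of skeletal muscle dominated every library: the 8 on the list, among them Acta1, Ckm and Myh4, summed to 157820 to 246310 CPM in air and 167030 to 213040 CPM in smoke. Markers of T, B and natural killer cells were near zero, with 13 genes summing to 1.21 to 4.41 CPM in air and 0.255 to 5.49 CPM in smoke, and none of the 13 passed the expression filter. Of 10 macrophage markers 7 passed, and the list summed to 83.4 to 148 CPM in air and 92.8 to 152 CPM in smoke. In whole muscle, fewer cells of a type and less RNA per cell cannot be told apart. The labels do not say that each sample came from a separate mouse, so that p-values measure the spread between these samples.

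For none of the 9 genes did a difference between smoke and air pass a test. Of these 9, 7 passed the expression filter (at least 10 counts or the like depth in enough samples), and 0 of 7 were called by edgeR's quasi-likelihood test at a Benjamini-Hochberg adjusted p under 0.05, against a background of 1.92% of 10159 genes. DESeq2 and limma voom also called 0. At an unadjusted p under 0.05 there was 1 (Ifitm3), 14.3% of the 7 against 15.5% of all genes tested. Fold changes were of both signs, 3 positive and 4 negative, with a median log2 fold change of −0.054 beside 0.0066 over all genes. Ifit1 and Bst2 lay near the detection floor in both groups.

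**Figure D1:**
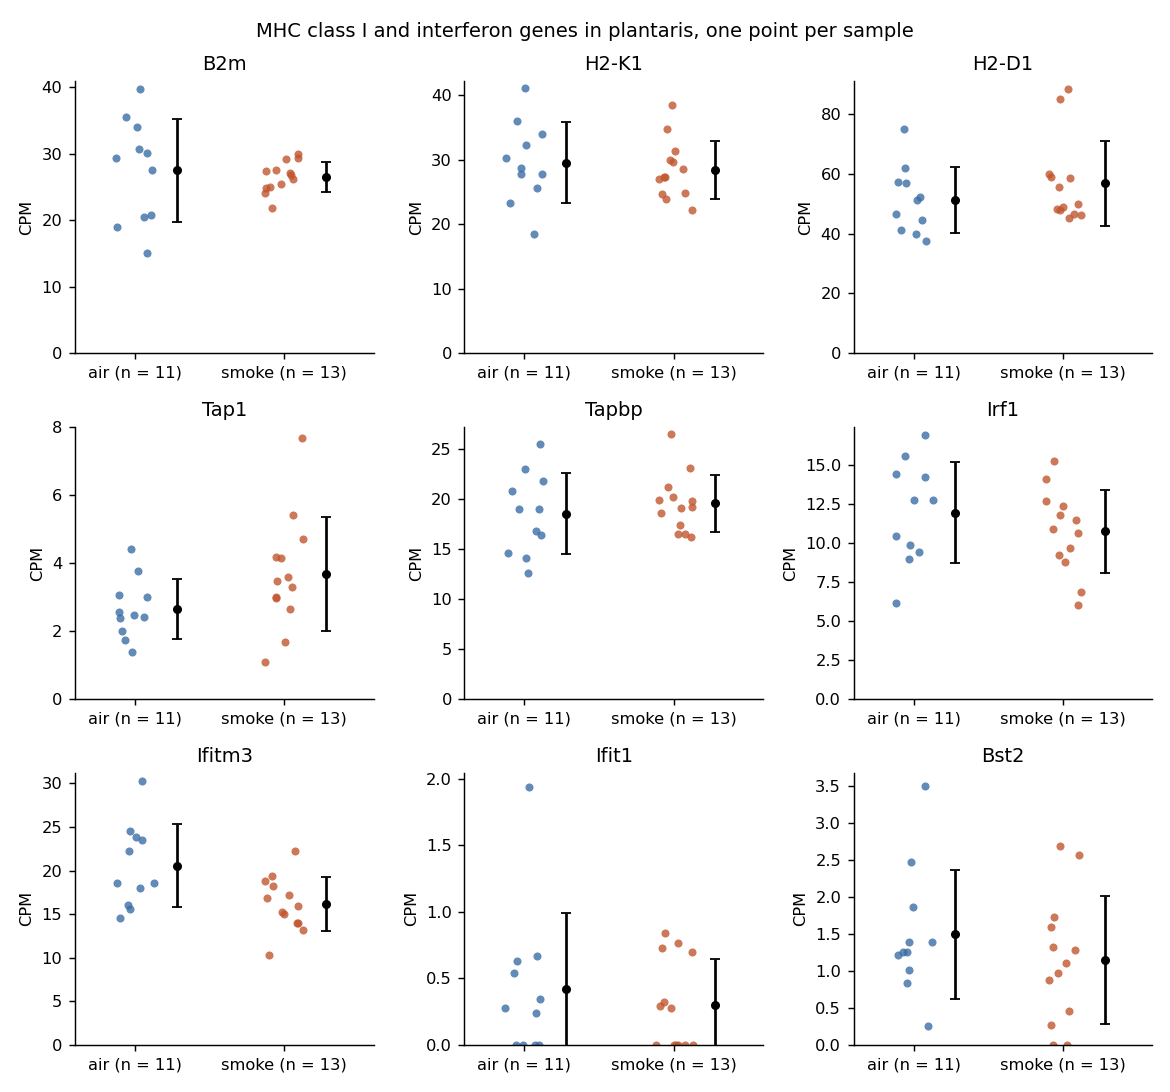
CPM of each of the 9 genes in every sample, on linear axes from 0 with a scale of its own for each gene; coloured points are samples (air blue, n = 11; smoke orange, n = 13), and black points with bars are the mean ± SD, cut at 0. The groups overlap for every gene, B2m is more tightly packed in smoke (21.9 to 30.0 CPM) than in air (15.1 to 39.7 CPM), and Ifit1 and Bst2 have samples at 0.

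B2m (ENSMUSG00000060802, chromosome 2, 122147686 to 122153083, plus strand in GRCm38), the light chain shared by class I molecules, had a lowest, median and highest value of 15.1, 29.3 and 39.7 CPM in air. In smoke these were 21.9, 26.8 and 30.0 CPM. Air samples were therefore both the lowest and the highest, with all smoke samples between them. The means were 27.5 ± 7.72 (SD, n = 11) and 26.5 ± 2.30 CPM (SD, n = 13). The log2 fold change was −0.054 (SE 0.11, edgeR adjusted p = 0.875), with a 95% confidence interval of 0.824- to 1.13-fold. Patl2, transcribed the other way, overlaps the 3′ end of B2m, and the sources used here do not give whether counting kept the strands apart.

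H2-K1 (ENSMUSG00000061232, chromosome 17, 33996017 to 34000347, minus strand), a class I heavy chain, had 18.6, 28.7 and 41.1 CPM as lowest, median and highest in air and 22.2, 27.3 and 38.4 CPM in smoke. The groups overlapped over almost their whole range. Its log2 fold change was −0.062 (SE 0.10, edgeR adjusted p = 0.837, interval 0.831- to 1.11-fold).

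H2-D1 (ENSMUSG00000073411, chromosome 17, 35262730 to 35267499, plus strand), the other heavy chain, had 37.5, 51.2 and 75.0 CPM in air and 45.2, 49.98 and 88.4 CPM in smoke. The 2 highest of all samples were smoke replicates 5 and 2, at 88.4 and 84.9 CPM, and the other smoke samples lay within the air range. The log2 fold change was 0.14 (SE 0.11, edgeR adjusted p = 0.597, interval 0.942- to 1.30-fold). It was 0.079 without smoke replicate 5 and 0.081 without smoke replicate 2.

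The 2 heavy chains are close copies. Over 284 aligned bases of the last 500 of their main transcripts (GENCODE M21), 93.7% were identical. Of the 451 exact 50-base stretches in the end of H2-K1, 2 also occur in H2-D1. In the end of H2-D1, 43 of 451 (9.53%) occur in some other annotated gene, such as Adsl and Kcnk4 with 22 each. How the deposited counts treated reads that fit both is not given in the sources used here.

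Within a sample the ratio of H2-D1 to H2-K1 counts does not depend on library scaling. It was above 1 in 24 of 24 samples. In air its lowest, median and highest values were 1.42, 1.67 and 2.15, and in smoke 1.68, 1.96 and 2.44. The air mean was 1.75 ± 0.221 (SD, n = 11), the smoke mean was 1.98 ± 0.248 (SD, n = 13), and 10 of the 13 smoke samples exceeded the former. The log2 difference was 0.18 ± 0.073 (SE, two-sided permutation test, p = 0.0208). This ratio was chosen after the values were seen, and its p is not adjusted for the other ratios that could be formed.

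Tap1 (ENSMUSG00000037321, chromosome 17, 34187553 to 34197225, plus strand), a subunit of the peptide transporter, was low, with 3 to 20 counts per sample. Its values were 1.38, 2.47 and 4.41 CPM in air and 1.10, 3.46 and 7.69 CPM in smoke. The lowest sample as well as the 3 highest were smoke samples, and 11 of the 13 smoke samples exceeded the mean of the air group. The log2 fold change of 0.43 (SE 0.23) was the largest in size of the 7 and did not pass (edgeR p = 0.0644, adjusted p = 0.357). Its interval, the widest of the 7, ran from 0.981- to 1.86-fold. Psmb9, read in the opposite direction, overlaps its record outside the last 500 bases.

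Tapbp (ENSMUSG00000024308, chromosome 17, 33915899 to 33929292, plus strand), the tapasin that loads class I molecules, had 12.6, 18.9 and 25.5 CPM in air and 16.2, 19.1 and 26.5 CPM in smoke. The medians were close, and the log2 fold change was 0.086 (SE 0.11, edgeR adjusted p = 0.763, interval 0.913- to 1.23-fold). Zbtb22 on the same strand and Gm19412 on the other overlap it.

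Irf1 (ENSMUSG00000018899, chromosome 11, 53770014 to 53778374, plus strand), the interferon-gamma induced transcription factor that drives class I genes, had 6.17, 12.8 and 16.9 CPM in air. In smoke it had 6.06, 10.9 and 15.3 CPM. The ranges overlapped, and the log2 fold change was −0.14 (SE 0.15, edgeR adjusted p = 0.710, interval 0.736- to 1.12-fold). Gm17334 on the opposite strand overlaps its locus.

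Ifitm3 (ENSMUSG00000025492, chromosome 7, 141009586 to 141010770, minus strand) came closest to the threshold. Its values were 14.6, 18.6 and 30.2 CPM in air and 10.3, 16.0 and 22.3 CPM in smoke. The 4 lowest samples were smoke samples and 12 of the 13 smoke samples were under the mean of the air group, with the ranges overlapping between 14.6 and 22.3 CPM. Air averaged 20.5 ± 4.76 CPM (SD, n = 11), smoke 16.2 ± 3.09 CPM (SD, n = 13). The log2 fold change of −0.35 (SE 0.12) had an edgeR p of 0.00486 and an adjusted p of 0.111, with an interval of 0.664- to 0.924-fold. With the mean of the macrophage markers as a covariate it was −0.23 (edgeR adjusted p = 0.248). Of the 7 tested macrophage markers 6 had a negative fold change, with a median of −0.046 on the log2 scale, and 0 were called or had an unadjusted p under 0.05 in edgeR. Their part in the Ifitm3 value was not tested further. Of the 50-base stretches in its last 500 bases 14.0% also occur in other annotated genes, most often in Gm7676.

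Ifit1 (ENSMUSG00000034459, chromosome 19, 34640871 to 34650009, plus strand) had 16 counts over 11 air samples and 14 over 13 smoke samples. A single library, air replicate 1, held 7 of the 16, and no other had more than 3. It was at 0 in 4 of 11 air and 6 of 13 smoke samples. At 0.665 to 1.15 CPM per floor of 3 counts, a difference between the groups was not detectable at this depth (log2 difference −0.13 ± 0.25 SE, two-sided permutation test, p = 0.609, adjusted over both low genes p = 0.609). With a prior count of 0.5 in place of 2 the log2 difference was −0.25 (permutation p = 0.638).

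Bst2 (ENSMUSG00000046718, chromosome 8, 71534255 to 71537456, minus strand) was somewhat above the floor, with 58 counts in air and 47 in smoke. Its values were 0.257, 1.26 and 3.50 CPM in air and 0, 1.11 and 2.69 CPM in smoke, and 2 smoke samples had no count. The log2 difference was −0.35 ± 0.29 SE (two-sided permutation test, p = 0.251, adjusted over both low genes p = 0.501). With a prior count of 0.5 it was −0.63 (permutation p = 0.216).

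Counts of 3′ ends are not proportional to transcript length, so that CPM levels of these genes can be set in order without division by length. In air the order of mean CPM was H2-D1, H2-K1, B2m, Ifitm3, Tapbp, Irf1, Tap1, Bst2 and Ifit1. H2-K1 and B2m (29.6 ± 6.22 and 27.5 ± 7.72 CPM, SD) had means closer together than either SD, as did Ifitm3 and Tapbp (20.5 ± 4.76 and 18.5 ± 4.03 CPM, SD). In smoke Tapbp stood at 19.5 ± 2.88 CPM and Ifitm3 at 16.2 ± 3.09 CPM (SD), means farther apart than either SD, with ranges that overlapped. These genes were read in the same samples, and no paired test of their levels was made.

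How far samples of a group differed from each other was set beside the spread that counting alone would give. For B2m the coefficient of variation was 28.1% in air and 8.68% in smoke, where counting error alone gives 10.3% and 10.6%. On the log2 scale the SD was 0.43 in air and 0.12 in smoke, a ratio of 0.293, the lowest among all 10159 genes tested. Without air replicates 11 and 1, its lowest and highest air samples, the ratio was 0.380 and ranked 17 from the lowest. A limma test on absolute deviations across all genes, added after these values were seen, gave p = 0.000253 for B2m and an adjusted p of 0.321. That test called 1 of 10159 genes, so the difference in spread did not pass. H2-D1 had an SD of 0.30 in air and 0.32 in smoke, and its coefficients of variation, 21.6% and 25.0%, were both above the counting error of 7.51% and 7.25%. For Tap1 the coefficients were 32.9% in air and 45.3% in smoke, beside counting errors of 32.99% and 28.5%, and the difference in spread did not pass (limma p = 0.342, adjusted p = 0.948).

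**Figure D2:**
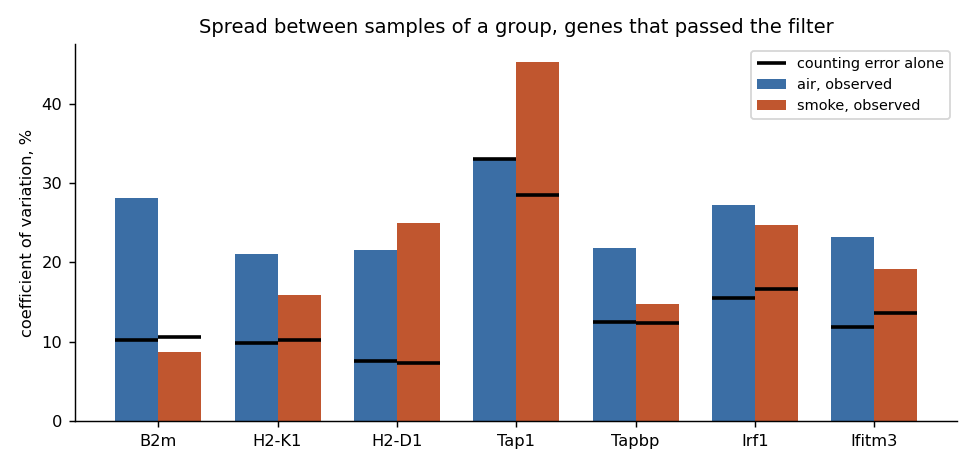
Coefficient of variation between samples of a group, in % of the mean CPM, for the 7 genes that passed the expression filter; blue bars are air (n = 11), orange bars smoke (n = 13), and black lines mark the value that counting error alone would give. The B2m bar in smoke (8.68%) lies below its line and the one in air (28.1%) well above it.

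Samples of a group with more of one heavy chain had more of the other. Over log2 CPM centred on the group means, H2-K1 and H2-D1 correlated at r = 0.82 (n = 24, permutation within groups, p = 1e-05, the smallest the resamples can give, adjusted p = 0.00021 over 21 pairs). Spearman's rho was 0.80 (p = 1e-05, adjusted p = 0.00021), and leaving out air replicates 11 and 1, the outermost by H2-K1, gave r = 0.81. Within air r was 0.83 and within smoke 0.84. Each was the other's closest gene among the 10158 others tested. This was the 1 of 21 pairs that passed adjustment.

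Within air B2m had a positive r with both heavy chains, which was not tested in that group alone. In smoke, as given above, the coefficient of variation of B2m was 8.68% beside a counting error of 10.6%, so that r within smoke can say little about B2m. With H2-K1 its r was 0.85 in air and −0.23 in smoke, and with H2-D1 it was 0.81 and −0.19. The negative sign of both smoke values rests on smoke replicate 5. Its centred log2 CPM was −0.26 for B2m, 0.44 for H2-K1 and 0.67 for H2-D1. A test of the difference between groups, with group labels permuted over centred pairs and chosen after the values were seen, gave p = 0.0299 and p = 0.0131, or 0.0597 and 0.0525 adjusted over 4 such tests, so that neither passed. The permutation takes B2m to spread alike in both groups, while its SD on the log2 scale was 0.43 in air and 0.12 in smoke. It cannot therefore decide whether the relation differs. Over all 24 samples B2m and H2-K1 gave r = 0.60 (permutation p = 0.00649, adjusted p = 0.0681) and rho = 0.44 (p = 0.0388, adjusted p = 0.246). For B2m and H2-D1 these were r = 0.46 (permutation p = 0.0191, adjusted p = 0.133) and rho = 0.43 (p = 0.0470, adjusted p = 0.246). Without air replicates 11 and 1, r over the remaining 22 samples was 0.27 for both pairs, so that the pooled value depends on those samples. Without smoke replicate 5, which had the lowest B2m and the highest H2-D1 of the smoke samples, the pooled r was 0.74 and 0.64 and both passed (adjusted permutation p = 0.00525 and 0.00735).

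The transporter, tapasin and interferon genes gave lower correlations with the class I chains, none of which passed. Tap1 gave r from −0.18 to 0.21 with the 3 chains and Tapbp from −0.34 to 0.073. Within groups Tapbp gave r = −0.53 with B2m, −0.54 with H2-K1 and −0.39 with H2-D1 in air, and 0.42, 0.52 and 0.64 in smoke, differences that were not tested. Without air replicates 11 and 1 the pooled r of Tapbp moved from −0.34 to −0.096 with B2m and from −0.17 to 0.12 with H2-K1. Without smoke replicates 5 and 2 it moved from 0.073 to −0.22 with H2-D1. Irf1 gave r from 0.16 to 0.36 with the chains, the highest with H2-D1 (permutation p = 0.0873). Within smoke Ifitm3 gave r = 0.69 with H2-K1 against 0.047 in air, a difference that was not tested.

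Each of the 7 genes was also set against the mean log2 CPM of macrophage, endothelial, fibroblast and class II lists, 28 relations in all. A single relation passed by both coefficients: Ifitm3 with the macrophage markers (Csf1r, C1qa, C1qb, C1qc, Mrc1, Cd163 and Mertk), at r = 0.74 (permutation p = 7.0e-05, adjusted p = 0.00196) and rho = 0.70 (permutation p = 0.00025, adjusted p = 0.0070). Leaving out air replicate 7 and smoke replicate 11, the outermost by Ifitm3, gave r = 0.70, and within groups r was 0.71 in air and 0.78 in smoke. Ifitm3 and the fibroblast list gave r = 0.46, which did not pass (permutation p = 0.0296, adjusted p = 0.203). B2m and the heavy chains gave r from 0.099 to 0.17 with the macrophage list and from −0.12 to 0.021 with the endothelial list. With the fibroblast list they gave r from 0.40 to 0.47, of which none passed adjustment (smallest permutation p = 0.0270, adjusted p = 0.203, for H2-K1). With the class II list they gave r from 0.37 to 0.52, of which none passed adjustment (smallest permutation p = 0.0111, for H2-D1).

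**Figure D3:**
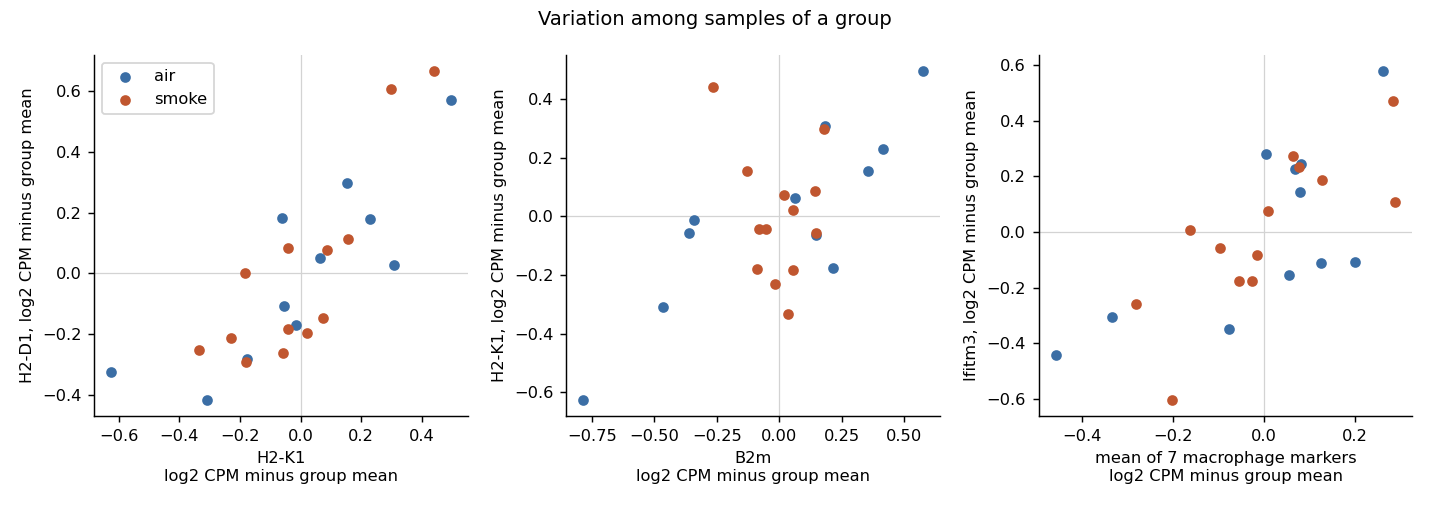
Each point is a sample (air blue, smoke orange), with log2 CPM minus the mean of its group on both axes, for H2-D1 against H2-K1, H2-K1 against B2m, and Ifitm3 against the mean of 7 macrophage markers. The heavy chains rise together in both groups (r = 0.83 in air and 0.84 in smoke), B2m and H2-K1 give r = 0.85 in air and −0.23 in smoke, and Ifitm3 rises with the macrophage markers (r = 0.74 over all). The negative sign of the smoke value for B2m and H2-K1 rests on smoke replicate 5.

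The rest of the pathway was described from 6 further lists with 109 genes, of which 48 passed the filter. Of these 48, 1 gene was called by edgeR, Cd74, lower in smoke, against 1.19% of all genes called lower and 0.728% called higher. At an unadjusted p under 0.05 there were 9, or 18.8%, beside 15.5% over all genes. DESeq2 and limma voom called Cd74 and no other gene of these lists.

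Of 15 further class I and class Ib chains, 1 passed the filter, Mr1, which presents microbial vitamin metabolites. It stood at 22.2 and 24.02 CPM in air and smoke (log2 fold change 0.11, SE 0.086, edgeR adjusted p = 0.601). The Q and T region chains were at or near the floor, as with H2-T22 at 0.897 and 1.44 CPM and H2-Q7 at 1.27 and 0.798 CPM.

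In peptide supply and loading, 0 of 9 tested genes were called by edgeR and 1 had an unadjusted p under 0.05. Psme1, a subunit of the proteasome activator PA28, was at 26.4 and 21.8 CPM (log2 fold change −0.28, SE 0.089, edgeR adjusted p = 0.0914), with 12 of the 13 smoke samples under the mean of the air group. Psmb8, an immunoproteasome subunit, was at 8.41 and 9.22 CPM (log2 fold change 0.12, edgeR adjusted p = 0.782). The median over the list was −0.0028. Tap2, the partner of Tap1, did not pass the filter, at 0.993 and 0.976 CPM.

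In interferon receptors and signalling, 0 of 11 tested genes were called and 1 had an unadjusted p under 0.05 by edgeR. Irf2, a regulator that competes with Irf1 at the same sites, was at 32.4 and 39.2 CPM, with 12 of the 13 smoke samples exceeding the mean of the air group (log2 fold change 0.28, SE 0.11, edgeR adjusted p = 0.178). Irf8, a factor of myeloid cells, was at 7.75 and 9.44 CPM (log2 fold change 0.28, edgeR adjusted p = 0.348).

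Among interferon-stimulated effectors, 17 of 42 passed the filter, 0 were called and 2 had an unadjusted p under 0.05 by edgeR, with opposite signs. Ifitm2, a close relative of Ifitm3, was at 6.44 and 4.82 CPM and all 13 smoke samples were under the mean of the air group (log2 fold change −0.42, SE 0.14, edgeR adjusted p = 0.115). Ddx58, the RNA sensor RIG-I, was at 13.3 and 18.4 CPM (log2 fold change 0.46, SE 0.19, edgeR adjusted p = 0.210). Isg15 and Mx1, classical type I interferon targets, did not pass the filter, at 2.67 and 1.95 CPM and at 0.0764 and 0.0695 CPM. Among interferon-gamma GTPases and chemokines, 0 of 5 tested genes were called by edgeR and 1 had an unadjusted p under 0.05. Gbp4 was at 3.50 and 2.30 CPM (log2 fold change −0.66, SE 0.27, edgeR adjusted p = 0.212) and Gbp7 at 3.71 and 4.71 CPM (log2 fold change 0.35, edgeR adjusted p = 0.436).

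**Figure D4:**
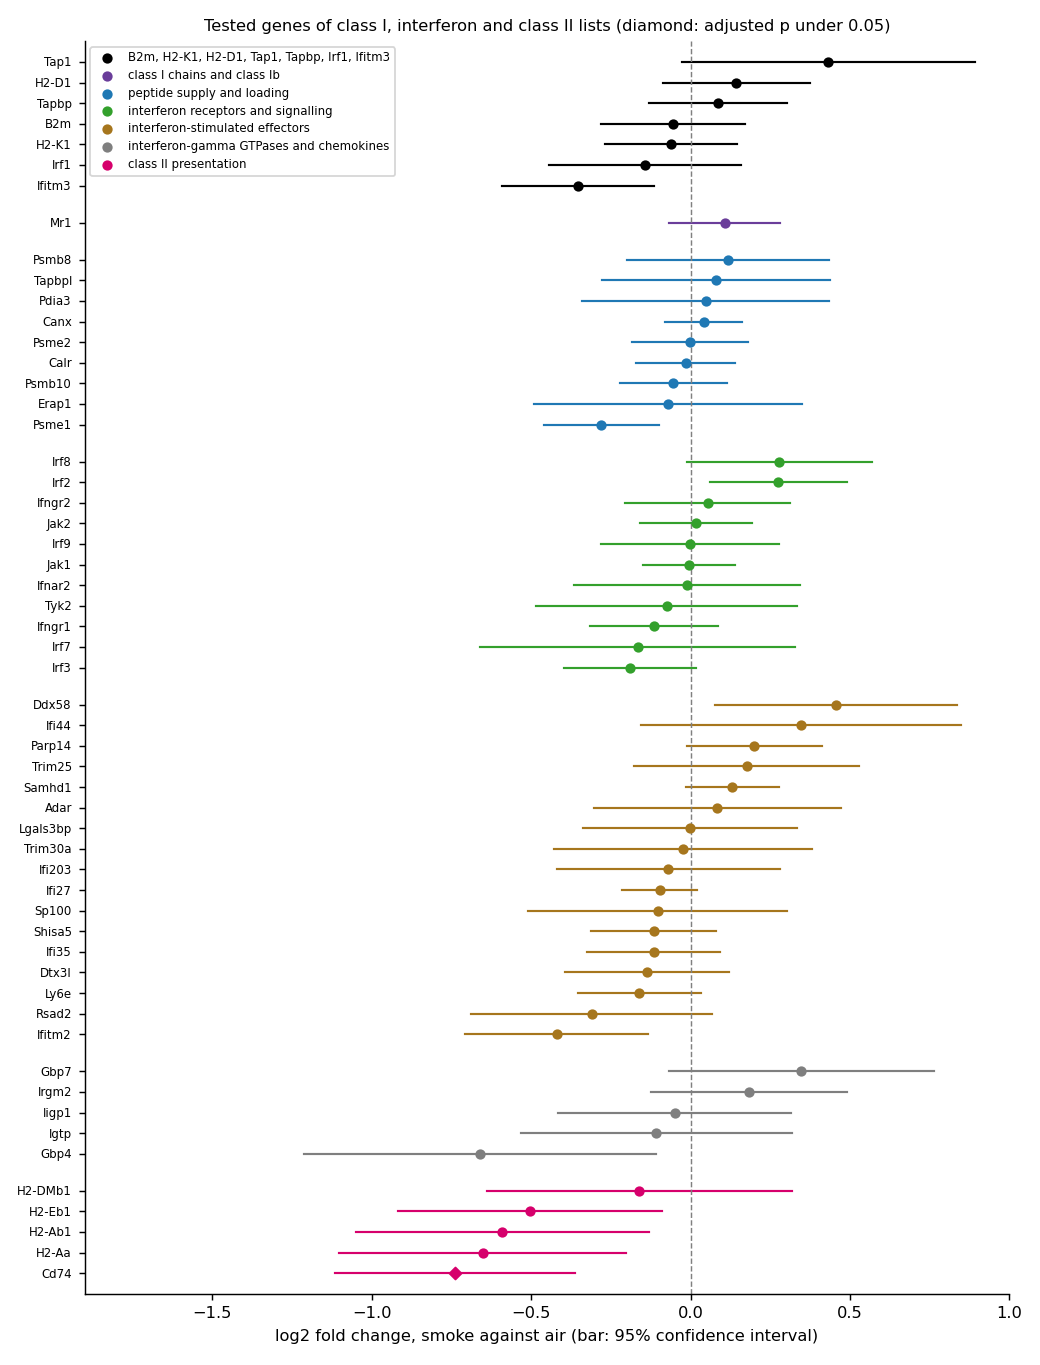
Log2 fold change of smoke against air with its 95% confidence interval (horizontal axis) for each tested gene of the class I, interferon and class II lists, grouped and coloured by list; diamonds mark an adjusted p under 0.05. The intervals of B2m, both heavy chains, Tap1, Tapbp and Irf1 cross 0, that of Ifitm3 lies below 0, and Cd74 at the bottom is the single diamond.

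Class II presentation, which professional antigen-presenting cells use for peptides taken up from outside, had the lowest median fold change of the 6 lists. Its 5 tested genes all had a negative fold change, with a median log2 fold change of −0.59, and 1 was called. Cd74, the invariant chain that guards the class II groove, had 2.68, 5.35 and 8.52 CPM as lowest, median and highest in air. In smoke it had 1.85, 3.19 and 4.79 CPM. All 13 smoke samples were below the air mean, though the ranges overlapped. The log2 fold change was −0.74 (SE 0.19, edgeR adjusted p = 0.0273), on 7 to 31 counts per sample.

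The class II chain genes, named here after their values were seen except H2-Aa, had like values. H2-Aa was at 6.94 and 4.42 CPM (log2 fold change −0.65, SE 0.22, edgeR adjusted p = 0.119), H2-Ab1 at 4.89 and 3.24 CPM (−0.59, SE 0.23, edgeR adjusted p = 0.175) and H2-Eb1 at 4.20 and 2.94 CPM (−0.50, SE 0.20, edgeR adjusted p = 0.204). H2-DMb1, which helps to load class II molecules, was at 3.62 and 3.27 CPM (−0.16, edgeR adjusted p = 0.810). Each of Cd74, H2-Aa, H2-Ab1 and H2-Eb1 thus had an interval below 0, while those of B2m, H2-K1 and H2-D1 included 0. The difference between the class I and class II fold changes was not tested.

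**Figure D5:**
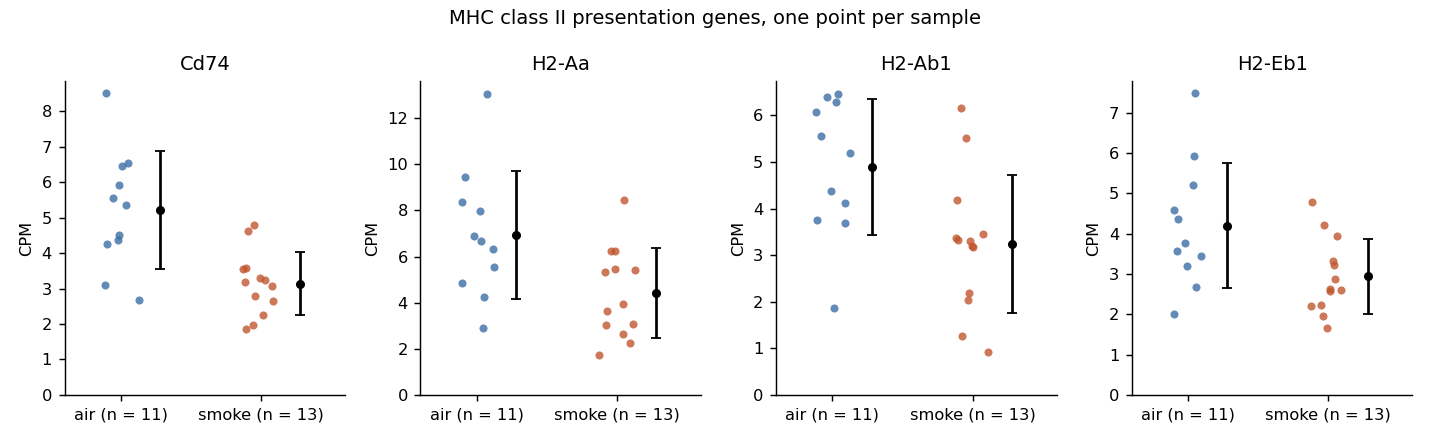
CPM of Cd74, H2-Aa, H2-Ab1 and H2-Eb1 in every sample, on linear axes from 0; points are samples (air blue, n = 11; smoke orange, n = 13) and black points with bars are the mean ± SD. Smoke samples sit lower on average for each gene, with ranges that overlap (Cd74 at 2.68 to 8.52 CPM in air and 1.85 to 4.79 CPM in smoke).

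The Cd74 call was lost in 7 of 35 alternatives, among them leaving out air replicate 7, air replicate 9 or smoke replicate 9 (edgeR adjusted p = 0.0630, 0.0503 and 0.0539) and the replicate block (adjusted p = 0.0557). The log2 fold change itself ran from −0.80 to −0.65 when samples were left out in turn and was −0.76 with the block. Markers of red blood cells were also lower in smoke: 3 of 5 erythroid genes were called lower, against 1.19% of all genes. The list summed to 486 to 1444 CPM in air and 369 to 883 CPM in smoke, and its relation to the class II genes was not tested. With the mean of the erythroid markers as a covariate the log2 fold change of Cd74 was −0.75 (edgeR adjusted p = 0.133), as large as without it. That of H2-Aa was −0.29, that of H2-Ab1 −0.45 and that of H2-Eb1 −0.17. Since all 5 erythroid genes had a negative fold change, these fits cannot tell their part from that of smoke. With the macrophage markers as a covariate Cd74 was at −0.64 (edgeR adjusted p = 0.0749).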

How the data were processed

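The deposited table gives unnormalised read counts by Ensembl gene for 24 libraries. Per the labels' protocols, RNA from frozen plantaris was made into Lexogen QuantSeq 3′ FWD libraries. The submitters' processing notes name STAR, DESeq2 and the build mm9 without their roles, while the table holds no positions. The annotation, treatment of multi-mapping reads, strand and molecular identifiers were not given in the sources used here, so floors cover counting error only. Symbols and coordinates came from GENCODE M21 (GRCm38), which held 47224 of 47643 IDs (99.1%), and promoters from RefSeq (GRCm38.p6), which held all 9 genes.

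Groups came from the sample titles. Counts were filtered with filterByExpr (minimum count 10), scaled by TMM and tested with the quasi-likelihood F test of edgeR 4.0.16 in R 4.3.3, smoke against air, without covariates, with p-values adjusted by Benjamini-Hochberg over all genes tested. CPM values and log2 CPM (prior count 2) were computed from the counts. Genes under the filter were compared by permutation tests (100000 resamples). Relations used group-centred log2 CPM permuted within groups. The lymphocyte list was not used there, since none of its genes passed, and the class II list was added after the data were seen. Named genes were the 9 genes, the called genes and the 2 smallest p-values of each other list, as far as these lists are described, and the 3 genes outside the 9 closest to each tested gene by r. H2-Ab1, H2-Eb1, H2-DMb1, H2-T22, H2-Q7, Tap2, Siglech, Isg15 and Mx1 were named after their values were seen. The 9 genes and all lists were chosen with earlier results of these data known. A gene of the signalling list was later taken out of it and is not reported here, and the list's counts leave it out. Scripts were tested on simulated data. No 2 libraries of a group agreed within counting noise (133 pairs, chi-square divided by genes at least 2.52), so none was merged.

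Alternatives were other scalings and filters, DESeq2 1.42.0, limma 3.58.1 (voom), robust dispersion, removal of Gm42418, marker covariates, the replicate number as a block and leaving out each sample.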

Additional observations from a re-analysis of the deposited data

How the results depend on the processing

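None of the 7 tested genes was called under any of the 35 alternatives, and leaving out each sample in turn gave 0 to 0. The fold changes of the 7 tested genes changed sign in 3 cases, all near 0, and in no other case crossed 0 or the threshold: B2m was 0.047 and H2-K1 0.049 with the erythroid markers as a covariate, and B2m was 0.0100 without air replicate 1 (from −0.12 to 0.0100 when samples were left out in turn). Leaving out samples in turn gave 0.079 to 0.21 for H2-D1, 0.038 to 0.14 for Tapbp, −0.12 to −0.0051 for H2-K1, 0.32 to 0.52 for Tap1 and −0.22 to −0.081 for Irf1. Over all alternatives Ifitm3 stayed between −0.40 and −0.23 (edgeR adjusted p from 0.0660 to 0.443). The count over all genes was 195, became 323 with DESeq2 and 56 with the erythroid covariate, and ran from 141 to 254 when samples were left out in turn. The cause was not tested.

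The pathway count of 1 (Cd74) became 0 without an expression filter (27644 genes tested), with the erythroid or the macrophage covariate, and with the replicate block. It ran from 0 to 1 when samples were left out in turn. Over all alternatives the adjusted p of Cd74 ran from 0.0163 to 0.133. Same-numbered samples share only a number: their deviations correlated at a mean r of −0.0059 over 11 pairs, and 2 of 11 air samples correlated best with their own number. With the replicate block 139 genes were called, none of them among the 7.

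The number of pairs of genes that passed ran from 1 to 3 when samples were left out in turn, an alternative chosen after the data were seen. H2-K1 and H2-D1 passed in each of these fits (r from 0.78 to 0.84). The log2 difference of the H2-D1 to H2-K1 ratio ran from 0.15 to 0.21 (permutation p from 0.00712 to 0.0442). Depth limits Tap1, Ifit1, Bst2 and the class II genes, with at most 47 counts per sample.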

Other observations

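For each of the 7 tested genes, the 3 genes outside the 9 with the highest Pearson's r over group-centred log2 CPM in 24 samples are given as a description, picked as the extremes of about 10158 correlations. For H2-D1 they were Cd59a, which shields cells from complement (r = 0.78), Igfbp4 (0.75) and the laminin receptor subunit Itga6 (0.69). For H2-K1 they were Trip4 (0.76), Ndufv2 (0.72) and Gm37629 (0.72), and for B2m Emc2 (0.76), Ntpcr (0.75) and Rpl35 (0.73). Ifitm3 lay closest to Mrps22 (0.70), the lysosomal protease Ctsb (0.68) and Lamb1 (0.67). Tapbp lay closest to Rpl31-ps11 (0.82), Rbpms2 (0.77) and Gm39119 (0.75), Irf1 to Dtx3 (0.77), 4930444M15Rik (0.74) and Gm3854 (0.73), and Tap1 to Ireb2 (0.67), Fam19a3 (0.67) and Cptp (0.65).

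Of the remaining cell type lists, 0 of 8 fibroblast genes and 0 of 10 endothelial genes were called by edgeR, against 1.92% of all genes tested. At an unadjusted p under 0.05 there were 4 and 2, or 50% and 20%, beside 15.5% of all genes tested. Of the 8 fibroblast genes 7 had a negative fold change. The fibroblast list had a median log2 fold change of −0.26, with Pi16 at −0.39 (edgeR adjusted p = 0.114) and Dpt at −0.29 (edgeR adjusted p = 0.167), and summed to 265 to 403 CPM in air and 244.8 to 399.7 CPM in smoke. The endothelial list had a median of 0.0064. Siglech, a defining marker of plasmacytoid dendritic cells, the main makers of type I interferon, had 17 counts in air and 15 in smoke. Its means of 0.447 and 0.344 CPM lay under the detection floor. Tcf4 and Cox6a2 on the same list are also expressed in muscle. Their log2 fold changes were 0.14 (edgeR adjusted p = 0.165) and −0.051 (edgeR adjusted p = 0.676).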
